A study of Homo sapiens with 4 samples.

Results

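The genes described are those for the protein subunits of the mitochondrial ribosome, taken as every protein-coding gene in the count tables whose symbol starts with MRPL or MRPS followed by a digit. This gave 78 of 58735 listed genes, or of 19951 protein-coding genes. Of these, 49 carry the large subunit prefix MRPL and 29 the small subunit prefix MRPS. RNA-seq was made from HaCaT cells, an immortalized human keratinocyte line, in which siRNA against ALKBH5 was used to lower this RNA demethylase, and the comparison asks which transcripts differ once ALKBH5 is lowered. The siControl group (2 libraries) received a control siRNA and the siALKBH5 group (2 libraries) an ALKBH5 siRNA. Both groups were otherwise wild-type HaCaT cells in serum-supplemented DMEM, transfected with 200 pmol siRNA by a Lipofectamine reagent, and all RNA was poly-A selected. The sources used here do not say which siRNA sequence the sequenced cells received, whether the 2 libraries of a group came from separate cultures, or how long after transfection RNA was taken. The p-values therefore measure only the spread between these libraries, which may be technical.

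Mitochondria keep a ribosome of their own, which translates the few proteins that mitochondrial DNA still encodes, all of them parts of the respiratory chain and ATP synthase. Its rRNAs come from mitochondrial DNA, whereas every protein subunit is encoded in the nucleus, made in the cytosol and imported, so that 2 genomes have to supply matching parts. Some subunits are counterparts of bacterial ribosomal proteins and others were added during mitochondrial evolution. ALKBH5 removes the methyl group of N6-methyladenosine (m6A), a mark on mRNA that affects its decay, splicing and translation.

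Library totals lay between 16017502 and 18837807 counts. The counts of ALKBH5 were 1512 and 1576 under the control siRNA against 956 and 816 under its own, so that the siALKBH5 libraries held 55.5% of the control level (log2 fold change -0.85 ± 0.05 SE, adjusted p = 6.45e-15, edgeR's quasi-likelihood test with Benjamini-Hochberg adjustment). All 10 keratinocyte markers examined were detected, and their summed level was 19510 and 19100 CPM (counts scaled to the same library total) in siControl against 25090 and 25190 in siALKBH5, with 5 of the 10 higher and 4 lower. The summed level of 7 fibroblast markers was 21.9 and 22.8 CPM against 18.7 and 19.1, with 2 of the 3 tested lower and COL1A2, PDGFRA and PDGFRB at 0. That of 7 melanocyte markers was 14.1 and 13.7 CPM against 11.99 and 14.22, with neither of the 2 tested passing and TYR and TYRP1 at 0. Mitochondrial DNA gave 10.2% of counts in each siControl library, against 9.63% and 9.64% in siALKBH5. The part of these shifts in the results for the ribosomal genes was not tested. In bulk RNA, a change in transcript per cell and a change in the mix of cells cannot be told apart.

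The mitochondrial ribosomal protein genes did not move as 1 block. Of 77 genes tested, 20 rose and 10 fell in siALKBH5 (adjusted p under 0.05), and 47 did not pass. Over the 15075 genes tested, 19.3% rose and 17.3% fell. The members called in either direction were 39.0% of those tested, beside 36.6% of all genes, so the members were called about as often as any gene. DESeq2, which the paper names, called 15 of these 30 members, and 25.6% of the genes it tested. It did not call MRPL9, MRPL21, MRPL23, MRPL32, MRPL33, MRPL34, MRPL44, MRPL49, MRPL58, MRPS2, MRPS14, MRPS17, MRPS26, MRPS27 or MRPS30. The changes were small. Log2 fold changes ran from -0.52 to 0.47 with an SD of 0.20, against an SD of 0.44 over all genes tested. No member passed the study's fold threshold of an absolute log2 fold change of 1, whether by edgeR (2.92% of all genes tested), by DESeq2 (1.42% of the genes it tested) or at an unadjusted p under 0.05, which 38 members reached without the fold. The median log2 fold change was 0.034, against -0.0081 over all genes tested.

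**Figure D1:**
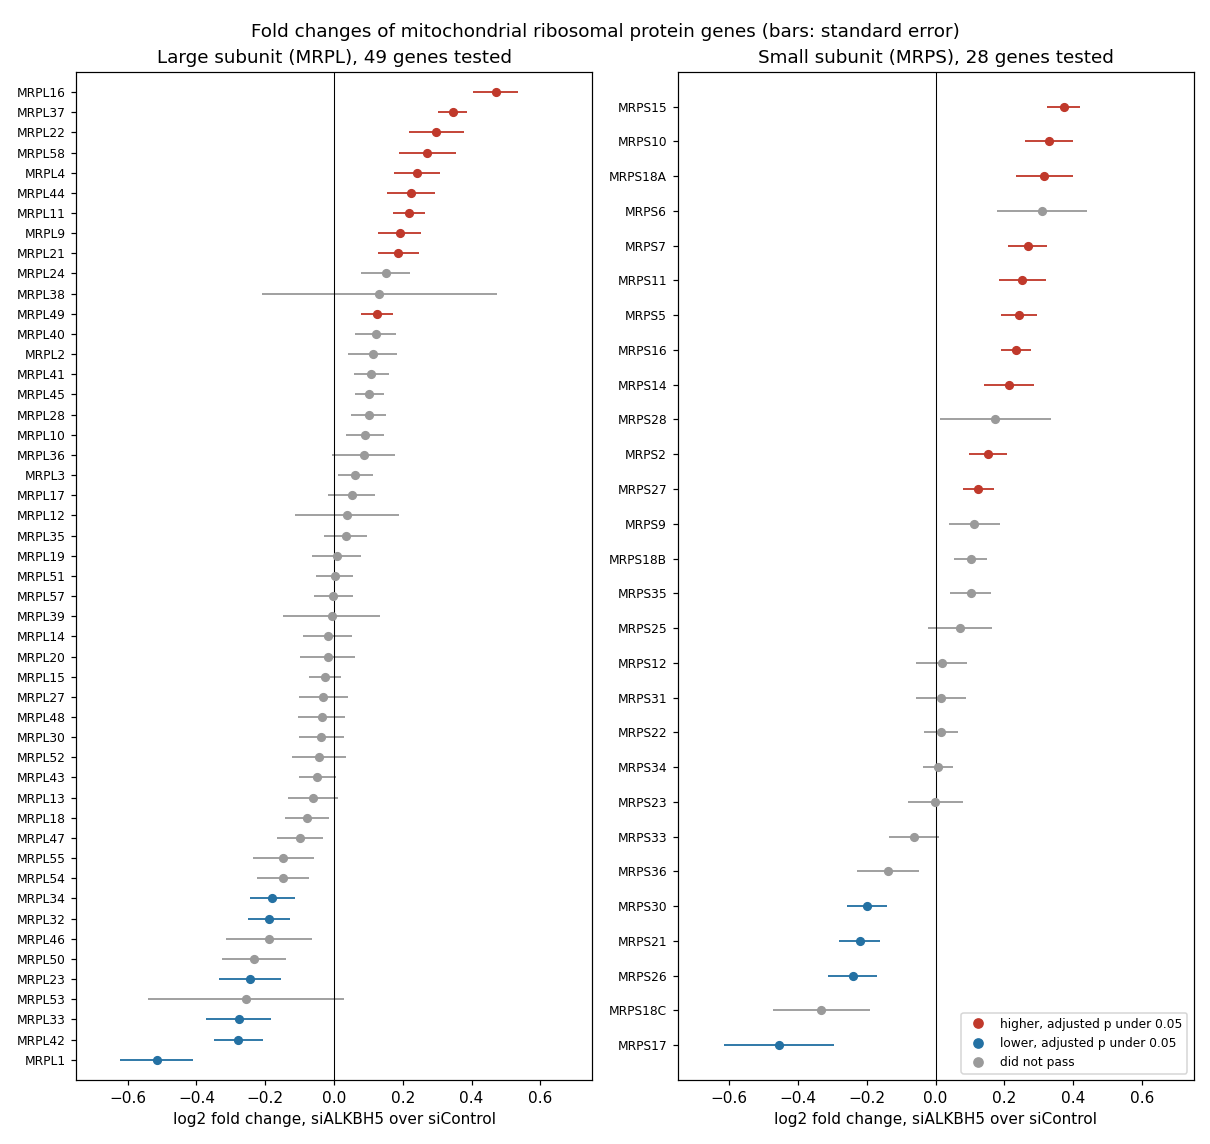
Each point is the log2 fold change of 1 gene, siALKBH5 over siControl, with its standard error as a bar, for large subunit genes (left) and small subunit genes (right). Red points rose and blue points fell at an adjusted p under 0.05, grey points did not pass, and every point lies between -0.52 and 0.47.

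The libraries of the 2 groups did not overlap for 55 members, 34 of them higher and 21 lower in siALKBH5. Such a split was found for 32.8% of all genes tested in the higher direction, 33.5% in the lower and 66.3% in either. Each deposited table holds 1 siControl and 1 siALKBH5 library. The difference had the same sign in both tables for 62 of 77 members, beside 76.1% of all genes tested. Across the members the log2 ratios of the 2 tables had a Pearson r of 0.79 and a Spearman rho of 0.77 (n = 77 genes, which share the same 4 libraries). Over 12503 protein-coding genes tested the rho was 0.68 and the r 0.28. A gene without a count in 1 library gets an extreme log2 ratio here, so the 2 values of r cannot be compared. The members also had more counts, with a median of the mean counts of 676, against 455 for the protein-coding genes tested. Over the same 77 genes the log2 fold change had an r of 0.0045 with the length of the longest coding transcript and of 0.32 with the mean count.

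An ETS motif and a YY1 motif were more common in the promoters of these genes than in other promoters, and both stood in members that rose and in members that fell. RefSeq promoter windows (GRCh38.p14, 250 bases before to 50 after the start site) were matched by symbol for 69 members. The gene start listed in GENCODE 29 lay within 250 bases of the RefSeq start for 48 of the 69. It lay further off for the others, MRPL1 and MRPL37 among them, whose windows below belong to the RefSeq start only. The windows were searched on both strands for a motif of the nuclear respiratory factor NRF1, which reads nearly alike on both strands, a core ETS motif as bound by GABPA (CCGGAAG) and a YY1 motif (AANATGGC), which do not share a common core. Each of the 69 members had 1 window, whereas in the 2 comparison sets all windows were kept and a gene could have several. The 12525 protein-coding genes tested thus stand beside 14518 windows. The ETS motif was in 42.0% of member windows, 16.9% of the 14518 windows of protein-coding genes tested and 10.3% of all 35116 windows. The YY1 motif was in 36.2%, 9.2% and 6.6%, and the NRF1 motif in 11.6%, 9.7% and 5.8%. Not all of the most changed members had a match. The windows of MRPS15 (log2 fold change 0.37) and MRPS17 (-0.46) held none of the 3 motifs. The windows below were picked among those with a match. They belong to members with some of the largest rises (MRPL16, MRPL37, MRPS10) and falls (MRPL1, MRPL42, MRPL33, MRPS26), with MRPL17 as an NRF1 example. Each reads 5′ to 3′ on the strand of its gene, with the motif in capitals, and CTTCCGG is the ETS motif on the opposite strand.
MRPL16, ETS, chr11:59810766-59810795, minus strand: agtgaacacaaCTTCCGGccccactgagcg
MRPL37, YY1, chr1:54200187-54200216, plus strand: cctgcgcgcggcAACATGGCggggtccagg
MRPS10, ETS, chr6:42217865-42217894, minus strand: ccgctgtaaccCCGGAAGcaatcctgagag
MRPS10, YY1, chr6:42217834-42217863, minus strand: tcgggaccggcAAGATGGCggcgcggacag
MRPL1, YY1, chr4:77862835-77862864, plus strand: ccggagtgcccAACATGGCggcggccgtaa
MRPL42, YY1, chr12:93467511-93467540, plus strand: aggattgaaacAAGATGGCgggttcgtggt
MRPL33, ETS, chr2:27771700-27771729, plus strand: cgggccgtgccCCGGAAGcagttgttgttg
MRPS26, ETS, chr20:3046004-3046033, plus strand: tccccgcgccgCTTCCGGggcacggtggcg
MRPL17, NRF1, chr11:6683402-6683431, minus strand: aggctctgatGCGCATGCGCaaacacgttc

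The YY1 matches sat in one place. Of 28 matches outside chromosome 8, 22 began between 1 and 50 bases after the start site, all 22 on the strand of the gene, and in 18 of the 28 the ATG inside the motif was an annotated start codon of that gene, as it is in MRPL1 and MRPS10. ETS matches lay just before the start, with 21 of 39 in the 50 bases before it. By call, at least 1 of the 3 motifs was found in 11 of 19 windows of members that rose, 7 of 9 of members that fell and 30 of 40 of those that did not pass. In the same order, the ETS motif was in 5, 3 and 21 windows (26.3%, 33.3% and 52.5%), the YY1 motif in 8, 4 and 12 of the 19, 9 and 40 and the NRF1 motif in 0, 0 and 8. These matches describe letters in a window and not bound sites.

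**Figure D2:**
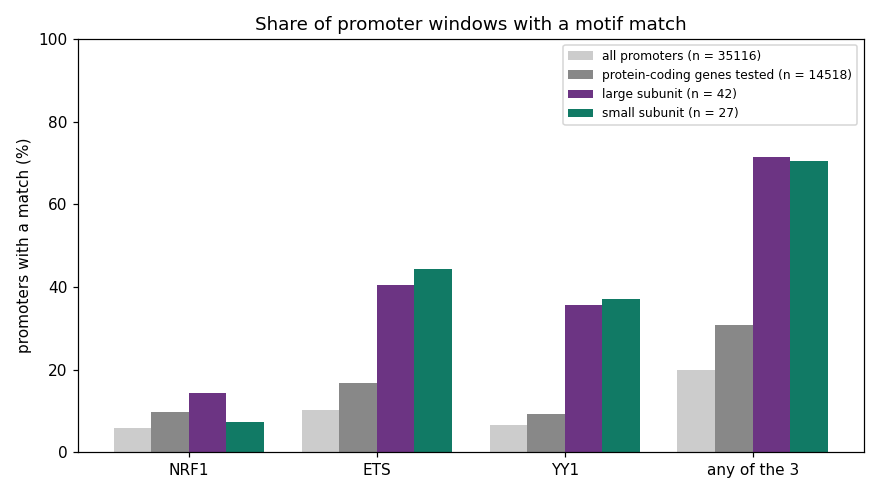
Bars give the percent of promoter windows that hold the NRF1, ETS or YY1 motif, or any of the 3, for all windows, protein-coding genes tested, large subunit genes and small subunit genes. The ETS and YY1 bars of both subunits stand well above those of other genes, at 40.5% and 44.4% for ETS and 35.7% and 37.0% for YY1, while the NRF1 bars, at 14.3% and 7.4%, do not.

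In the large subunit, 10 genes rose and 6 fell of 49 tested (20.4% and 12.2%, beside 19.3% and 17.3% of all genes tested). The median log2 fold change was 0.0015. MRPL16 (chr11:59806135-59810872 in GENCODE 29 on GRCh38), counterpart of the bacterial protein near the tRNA sites, was at 35.5 and 34.2 CPM in siControl and 47.9 and 48.6 in siALKBH5. Its groups lay far apart and its rise was the largest of all members (log2 fold change 0.47 ± 0.07 SE, adjusted p = 7.11e-07). MRPL37 (chr1:54184041-54225464), a protein with no bacterial counterpart, was at 85.7 and 87.7 CPM in siControl and 110 and 111 in siALKBH5. Both siALKBH5 libraries stood above both controls, at 127% of the control mean (0.35 ± 0.04 SE, adjusted p = 6.51e-08). MRPL11, at the base of the stalk that recruits translation factors, was at 76.5 and 78.0 CPM against 91.9 and 87.6 (0.22 ± 0.05 SE, adjusted p = 0.00033). These 3 genes also passed the test when any 1 library was left out.

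MRPL22 and MRPL4, which line the tunnel through which the nascent chain leaves, rose with less even libraries. MRPL22 was at 27.6 and 27.0 CPM in siControl and 35.9 and 30.9 in siALKBH5, with siALKBH5 replicate 1 the highest (0.30 ± 0.08 SE, adjusted p = 0.00372), and without that library its fold change was 0.18 (adjusted p = 0.175). MRPL4 rose by 0.24 ± 0.07 SE (adjusted p = 0.00479), and without siControl replicate 2 its adjusted p was 0.0754. MRPL58, a peptidyl-tRNA hydrolase that frees stalled ribosomes and also sits in the large subunit, was at 27.3 and 23.4 CPM against 29.7 and 31.3 (0.27 ± 0.08 SE, adjusted p = 0.0103). The groups of MRPL58 came closest through siControl replicate 1, and without siControl replicate 2 its log2 fold change was 0.16 (adjusted p = 0.243), while without siALKBH5 replicate 2 its adjusted p was 0.0551. MRPL44, needed to build the large subunit, rose by 0.22 ± 0.07 SE, and its adjusted p of 0.0115 became 0.0538 without siControl replicate 1 and 0.0598 without siALKBH5 replicate 1. MRPL9, which in bacteria lies near the L1 stalk, rose by 0.19 ± 0.06 SE (adjusted p = 0.0151), and without the same libraries its adjusted p was 0.102 and 0.14. Of the MRPL9 exon bases, 38.5% are shared with other genes, of which OAZ3 on the opposite strand covers 18.4%. The other members that rose were MRPL21 (log2 fold change 0.19, adjusted p = 0.0123) and MRPL49 (0.12, adjusted p = 0.0355). MRPL21 did not pass without siControl replicate 1 (adjusted p = 0.0891) or with DESeq2 (0.0742). MRPL49 had 0.05 (adjusted p = 0.517) without siALKBH5 replicate 2, and its adjusted p was 0.0516 and 0.135 without siControl replicates 1 and 2, 0.0913 without TMM factors and 0.14 with DESeq2.

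MRPL1, MRPL42, MRPL33, MRPL23, MRPL32 and MRPL34 were the 6 large subunit genes that fell. MRPL1 (chr4:77862520-77952790), the protein of the stalk that moves with the leaving tRNA, was at 18.6 and 21.3 CPM in siControl and 13.6 and 14.5 in siALKBH5. Both siALKBH5 libraries lay below both controls and averaged 70.2% of them, the largest change of any member (log2 fold change -0.52 ± 0.11 SE, adjusted p = 0.00021). MRPL42 (chr12:93467488-93516213), a protein with no bacterial counterpart, was at 38.2 and 37.8 CPM against 31.0 and 31.7 (-0.28 ± 0.07 SE, adjusted p = 0.00218). Both of these passed with any 1 library left out. MRPL33, near the exit site for tRNA, was at 22.7 and 22.7 CPM against 17.6 and 19.9 (-0.28 ± 0.09 SE, adjusted p = 0.02), with adjusted p of 0.071, 0.0768 and 0.236 without siControl replicate 1, siControl replicate 2 and siALKBH5 replicate 1. MRPL23, at the rim of the exit tunnel, fell by 0.24 on the log2 scale (adjusted p = 0.0327), and its adjusted p was 0.252 without siControl replicate 1 and 0.229 without siALKBH5 replicate 2. MRPL32, which is trimmed by the m-AAA protease before it enters the ribosome, fell by 0.19 (adjusted p = 0.0132), with 0.0814 and 0.0947 without the same libraries. MRPL34 fell by 0.18 (adjusted p = 0.0312), with 0.052, 0.193 and 0.2 without siControl replicate 1, siControl replicate 2 and siALKBH5 replicate 1. Without siControl replicate 1, 6 large subunit genes rose and 2 fell.

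In the small subunit, 10 genes rose and 4 fell of 28 tested (35.7% and 14.3%, beside 19.3% and 17.3% of all genes tested). The median log2 fold change was 0.10. MRPS15 (chr1:36455718-36464437), counterpart of the bacterial protein that binds the rRNA of the central domain early in assembly, was at 64.7 and 64.5 CPM in siControl and 85.02 and 82.16 in siALKBH5. The controls were nearly equal and both siALKBH5 libraries lay well above them (log2 fold change 0.37 ± 0.05 SE, adjusted p = 1.99e-07). MRPS10 (chr6:42206801-42217865), a protein of the small subunit head, was at 31.8 and 33.4 CPM against 42.2 and 39.7 (0.33 ± 0.07 SE, adjusted p = 0.000339), and MRPS7, also of the head, at 51.6 and 57.8 CPM against 65.4 and 66.7 (0.27 ± 0.06 SE, adjusted p = 0.000371). MRPS14, a further head protein, was at 37.5 and 33.3 CPM against 39.3 and 42.8, with a gap between the groups narrower than the spread within either (0.21 ± 0.07 SE, adjusted p = 0.0206). Its log2 fold change was 0.13 (adjusted p = 0.314) without siControl replicate 2, and its adjusted p 0.185 without siALKBH5 replicate 2.

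MRPS5, which lines the channel by which mRNA enters, rose by 0.24 ± 0.05 SE (adjusted p = 0.00045), and MRPS16, a protein of the body, by 0.23 ± 0.04 SE (adjusted p = 8.29e-05). MRPS11, a platform protein, was at 580 and 694 counts against 803 and 757 (0.25 ± 0.07 SE, adjusted p = 0.00384), with 0.0508 and 0.0516 without siControl replicate 1 and siALKBH5 replicate 2. MRPS11 starts 33 bases from MRPL46 on chromosome 15, transcribed the other way, and MRPL46 had a log2 fold change of -0.19 ± 0.13 SE that did not pass (adjusted p = 0.259). MRPS15, MRPS10, MRPS7, MRPS5 and MRPS16 passed with any 1 library left out. The remaining rises, beside MRPS18A, were MRPS2 (0.15, adjusted p = 0.0287) and MRPS27 (0.12, adjusted p = 0.0258). MRPS2 did not pass without siControl replicate 2 (0.192), siALKBH5 replicate 1 (0.0554) or siALKBH5 replicate 2 (0.132). MRPS27 did not pass without siControl replicate 1 (0.0502), siControl replicate 2 (0.163) or siALKBH5 replicate 1 (0.156). Neither passed with DESeq2 (0.13 and 0.125) or without TMM factors (0.0632 and 0.069). Without siALKBH5 replicate 2, 6 small subunit genes rose.

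MRPS17 (chr7:55951819-55956501), counterpart of a bacterial protein of the small subunit body, was at 7.882 and 8.003 CPM in siControl and 5.19 and 6.44 in siALKBH5. Both siALKBH5 libraries were lower, with 97 and 106 counts against 127 and 144, and its log2 fold change was -0.46 ± 0.16 SE (adjusted p = 0.0236). Its log2 fold change was -0.46 and -0.44 without siControl replicates 1 and 2, and -0.30 without siALKBH5 replicate 1. MRPS17 did not pass with DESeq2 (adjusted p = 0.146). Of its exon bases, 27.0% are shared with other genes on the same strand, of which AC092647.5 covers 21.8%. MRPS26, a protein added in mitochondria, was at 39.4 and 41.4 CPM against 33.0 and 35.5 (-0.24 ± 0.07 SE, adjusted p = 0.00697), and did not pass without siControl replicate 2 (0.078) or siALKBH5 replicate 1 (0.107). MRPS21, a short platform protein, fell by 0.22 (adjusted p = 0.00389), and had a log2 fold change of -0.12 (adjusted p = 0.215) without siControl replicate 2. MRPS30 fell by 0.20 (adjusted p = 0.0075, and 0.0706 without siControl replicate 1). Without siControl replicate 1 or 2, 2 small subunit genes fell.

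**Figure D3:**
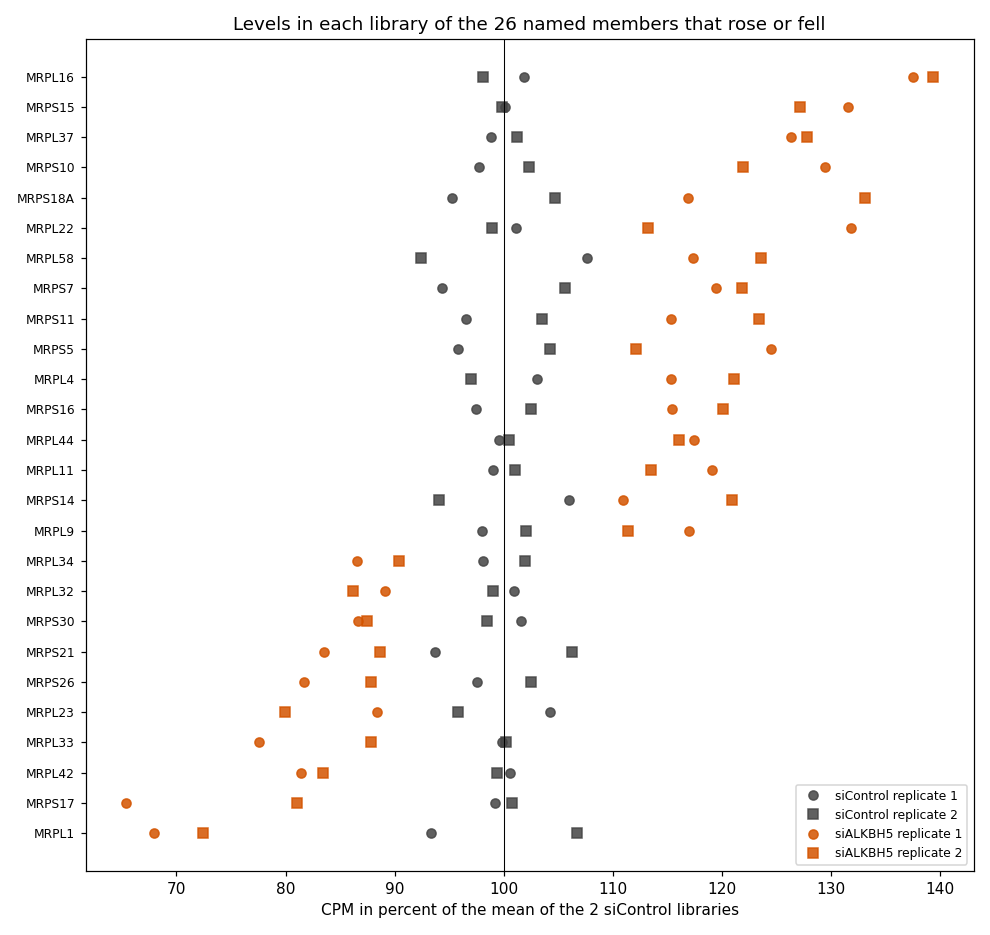
Points give the CPM of each of the 4 libraries in percent of the mean of the 2 siControl libraries, for the 26 named members that rose or fell, with siControl in grey, siALKBH5 in orange, replicate 1 as circles and replicate 2 as squares. The 26 were picked as called with the same sign in both tables. In every one of them the orange points lie on 1 side of both grey points, a split found for 66.3% of all genes tested. On average they reach 138% of control for MRPL16 and 70.2% for MRPL1.

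The prefix does not always give the place of a protein. Structures of the human mitochondrial ribosome put MRPS18A and MRPS30 in the large subunit, and MRPS36 is now assigned to the 2-oxoglutarate dehydrogenase complex. With MRPS18A and MRPS30 counted as large subunit genes, a grouping chosen after the values were seen, 11 large subunit genes rose and 7 fell and 9 small subunit genes rose and 3 fell, and both medians stayed at 0.0015 and 0.10. MRPS36 had a log2 fold change of -0.14 ± 0.09 SE and did not pass (adjusted p = 0.242).

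The paralogs MRPS18A, MRPS18B and MRPS18C, versions of the bacterial S18 protein, did not share a direction. MRPS18A was at 24.0 and 26.3 CPM in siControl and 29.4 and 33.5 in siALKBH5 (0.32 ± 0.08 SE, adjusted p = 0.00296, and 0.073 without siALKBH5 replicate 2). MRPS18B was at 78.3 and 85.8 CPM against 87.6 and 88.8 (0.10 ± 0.05 SE, adjusted p = 0.096), and MRPS18C at 10.99 and 9.73 CPM against 8.89 and 7.47 (-0.33 ± 0.14 SE, adjusted p = 0.0621). Neither passed, although without siControl replicate 2 the adjusted p of MRPS18B was 0.0233 and that of MRPS18C 0.0473, and without siALKBH5 replicate 1 that of MRPS18C was 0.0303. Much of the coding transcript of MRPS18A (56.9%) and MRPS18C (78.9%) is overlapped by a gene on the opposite strand, RSPH9 and ABRAXAS1. The library kit did not mark the strand, so reads from these partners cannot be told apart there.

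Rises in the small subunit were mostly in the genes with a bacterial counterpart. Of 16 such genes tested, 9 rose and 2 fell (56.2% and 12.5%, beside 19.3% and 17.3% of all genes tested). Their median log2 fold change was 0.22. Of 12 genes added in mitochondria, 1 rose (MRPS27) and 2 fell (8.33% and 16.7%), with a median of 0.011. The small subunit was taken by prefix here. The first class thus includes MRPS18A, which rose, and the second MRPS30, which fell, and MRPS36, which did not pass. In the large subunit 6 rose and 5 fell of 29 with a bacterial counterpart and 4 rose and 1 fell of 20 without, with medians of 0.034 and -0.005. This division follows the numbering of the symbols, with MRPL47 and MRPS24 moved to the bacterial class, was made after the values were seen, and the difference between the classes was not tested.

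Exon sharing with other genes went along with part of the small subunit pattern. Of 12 small subunit genes that share no exon base with another gene in GENCODE 29, 2 rose and 3 fell, with a median log2 fold change of 0.0031, and of 16 tested that share some, 8 rose and 1 fell, with a median of 0.16. In the large subunit 4 rose and 1 fell of 25 without sharing (median 0.034) and 6 rose and 5 fell of 24 with it (median -0.0086). Over all genes tested 19.3% rose and 17.3% fell. The members without a shared exon base included MRPS15, MRPS10 and MRPL16, which rose, and MRPL1, MRPS21, MRPS26 and MRPS30, which fell. The part of shared reads in these differences was not tested.

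Summed over all 78 genes, mitochondrial ribosomal protein transcripts made up 3320 and 3337 CPM in siControl and 3491 and 3495 in siALKBH5. The groups did not overlap and the siALKBH5 sum was 105% of control (log2 ratio 0.07). An exact permutation test of 2 against 2 libraries gave a two-sided p of 0.333, the smallest it can give. The large subunit sum was 2076 and 2064 against 2145 and 2148 CPM (104% of control) and the small subunit sum 1244 and 1273 against 1346 and 1347 CPM (107%). The ratio of the large to the small sum was 1.67 and 1.62 in siControl and 1.59 and 1.60 in siALKBH5, and the exact permutation p of each of these was also 0.333.

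The 2 most alike gene groups each had more calls in 1 direction, as had the members (20 higher and 10 lower). Such counts depend on depth. The median of the mean counts was 16160 in the cytosolic ribosomal protein genes, 1821 in the respiratory chain genes and 676 in the members. The median SE was 0.02, 0.04 and 0.07, so smaller changes could be called in the first 2. Of 84 cytosolic ribosomal protein genes tested, 10 rose and 50 fell (11.9% and 59.5%, beside 19.3% and 17.3% of all genes tested). Their median log2 fold change was -0.08 and their summed level was 96.1% of control. Of 80 nuclear genes of the respiratory chain, whose products meet those made by the mitochondrial ribosome, 33 rose and 7 fell (41.2% and 8.75%, median 0.12, sum 109% of control). Set against these, the mitochondrial ribosomal genes had their median between the 2 groups and a ratio of mitochondrial to cytosolic ribosomal sums of 0.0366 and 0.0366 in siControl and 0.0401 and 0.0397 in siALKBH5 (exact permutation p = 0.333). The differences between the groups were not tested beyond these sums.

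**Figure D4:**
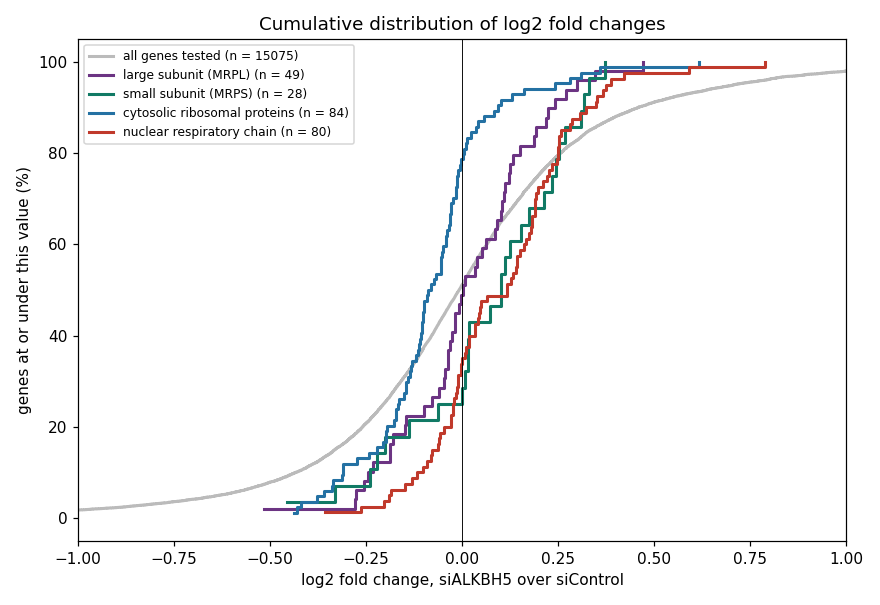
Lines give the percent of genes at or under each log2 fold change (x axis, drawn from -1 to 1) for large subunit genes, small subunit genes, cytosolic ribosomal protein genes, nuclear respiratory chain genes and all 15075 genes tested. The large subunit line crosses 50% near 0 (median 0.0015), the cytosolic line to its left (-0.08) and the small subunit and respiratory chain lines to its right (0.10 and 0.12), and each of these lines is steeper than that of all genes.

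Levels differed far more between members than between groups. Per kilobase of listed gene length, the large subunit median was 16.8 CPM per kb (range 0.436 to 69.1) and the small subunit median 15.7 (range 0.0821 to 88.6), beside a median of 267 for cytosolic ribosomal protein genes. MRPS34, a protein added in mitochondria that the small subunit needs to be stable, was highest at 88.6 ± 0.438 CPM per kb (SD over 4 libraries) and was at 97.1 and 96.8 CPM in siControl and 97.9 and 97.0 in siALKBH5, with no difference beyond the spread (log2 fold change 0.0075 ± 0.04 SE, adjusted p = 0.916). MRPL15, a large subunit protein with a bacterial counterpart, followed at 69.1 ± 1.14 CPM per kb, then MRPL45, which holds the ribosome to the inner membrane, at 58.3 ± 2.58 and MRPL41 at 55.3 ± 2.56. The levels of MRPL45 and MRPL41 lay within their joint spread over the 4 libraries of both groups, although MRPL45 was the higher in each library. MRPS34, MRPL15 and MRPL45 were separated by more than their spread. In the small subunit MRPS18B (45.1 ± 2.50) and MRPS21 (36.3 ± 3.80) came after MRPS34. MRPL15 had a log2 fold change of -0.03, MRPL45 of 0.10 and MRPL41 of 0.11, and none passed (adjusted p = 0.691, 0.0582 and 0.094).

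At the low end, several levels came with an overlapping gene. MRPS24, with 2 and 8 counts in the controls against 2 and 3, was not tested, and stood at 0.0821 CPM per kb. In 3 of the 4 libraries it was at or under 3 counts, and 81.0% of its coding transcript is shared on the same strand with the readthrough gene URGCP-MRPS24. MRPL38 (0.436 CPM per kb, 26 and 26 counts against 36 and 23), MRPL53 (1.65 CPM per kb, 44 and 38 against 41 and 30) and MRPL46 (1.71 CPM per kb) share 67.8%, 52.3% and 71.1% of their coding transcripts on the same strand. Together with MRPL12, whose bacterial counterpart forms the factor-binding stalk, and MRPS28 they were the 6 members that share at least 50% in this way. Per kilobase of coding transcript their median was 4.57 CPM, and of the 5 tested none passed (MRPL12, MRPL38, MRPL46, MRPL53, MRPS28), beside 30.7 CPM for the 37 members without a shared base. The same-strand partners of MRPS24, MRPL46, MRPL12 and MRPS28 had 0 counts in every library, and that of MRPL38 had 0 or 1. Reads in the shared exons were thus not counted for these partners. CCDC142, the partner of MRPL53, had 137 and 172 counts in siControl against 184 and 150. Whether reads in shared exons were dropped is not given in the sources used here. The levels of the 6 members are therefore uncertain and may be too low.

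The lowest small subunit levels after MRPS24 were those of MRPS18C (1.91 CPM per kb) and MRPS6 (2.51 CPM per kb). MRPS6 was at 8.63 and 10.6 CPM in siControl and 11.7 and 12.3 in siALKBH5 and did not pass (log2 fold change 0.31 ± 0.13 SE, adjusted p = 0.0647, and 0.0214 without siControl replicate 2). Ranked by coding transcript length instead, a choice made after the values were seen, MRPS34 stayed first (93.5 CPM per kb). MRPS15 came second (73.7) and MRPL15 next (71.8). MRPL42, with a listed length of 16393 bases, stayed near the bottom at 2.23. Its longest coding transcript has 15582 bases, so this change of scale could hardly move it.

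**Figure D5:**
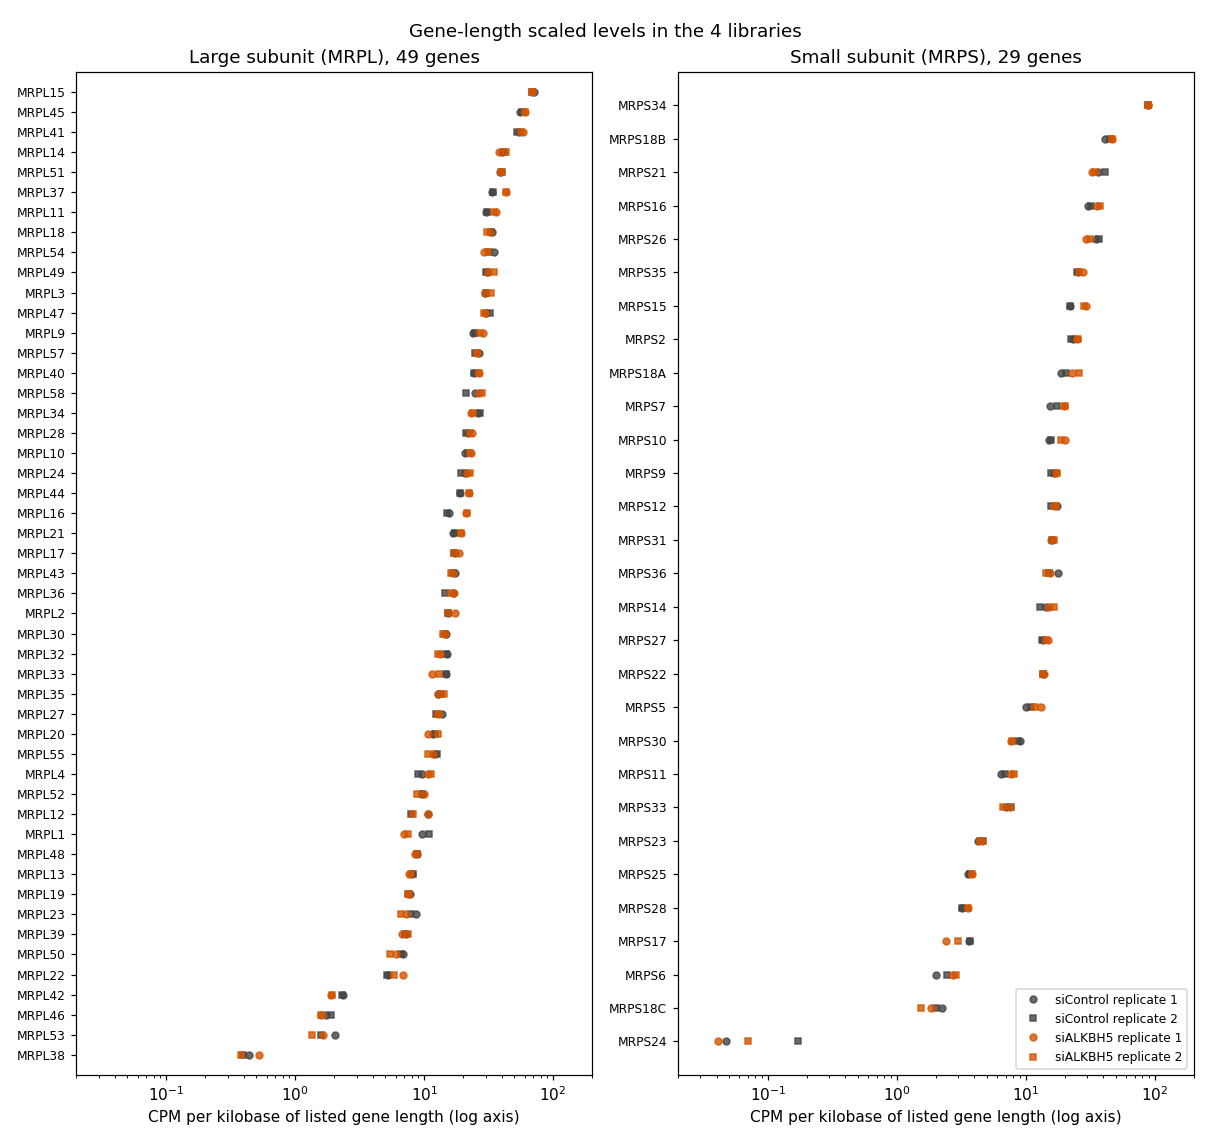
Points give the TMM-scaled CPM per kilobase of listed gene length in each of the 4 libraries on a log axis, for large subunit genes (left) and small subunit genes (right), in order of their mean. Levels run from 0.0821 for MRPS24 to 88.6 for MRPS34, and for most genes the points of the 4 libraries lie close together.

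The 47 tested members that did not pass had log2 fold changes between -0.33 and 0.31. For 25 of them the groups did not overlap, beside 66.3% of all genes tested, called or not, and for 22 they did. Among the latter were MRPS12, the decoding-site protein (607 and 601 counts against 658 and 603), MRPS23 (437 and 537 against 542 and 460), MRPL12 (178 and 147 against 207 and 139), MRPL19 (571 and 617 against 649 and 582) and MRPL51 (964 and 1128 against 1143 and 1013), all within 0.04 of 0 on the log2 scale.

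Other genes of mitochondrial translation were counted in the same way. Of 5 ribosome subunits with other names (DAP3, AURKAIP1, CHCHD1, PTCD3, GADD45GIP1), AURKAIP1 rose (0.13 ± 0.05 SE, adjusted p = 0.0211) and 0 fell. It was the 1 gene of the 5 at an unadjusted p under 0.05, and it did not pass with DESeq2, which called 0, or without TMM factors. Without siControl replicate 1, 1 of the 5 fell. Of 30 assembly and rRNA factors 6 rose and 4 fell (beside 19.3% and 17.3% of all genes tested). DESeq2 called 3 and 2, and without siControl replicate 2 or siALKBH5 replicate 1 the lower count was 1 or 2, and without siControl replicate 1 or siALKBH5 replicate 2 the higher count was 4. C1QBP, an assembly chaperone of the matrix, rose by 0.35 ± 0.04 SE and RCC1L, another assembly factor, by 0.31 ± 0.05 SE, whereas the assembly GTPase GTPBP10 fell by 0.38 and MTERF3, which helps large subunit assembly, fell by 0.41. Of 25 translation factors 5 rose and 1 fell, beside the same shares. DESeq2 called 2 and 0, the higher count was 1 without siControl replicate 1 and 2 without siALKBH5 replicate 1, and the lower count was 2 without siControl replicate 1. Among the called genes were the elongation factor TSFM (0.37 ± 0.10 SE), GFM2, which splits the subunits after termination (0.24 ± 0.07 SE), and the recycling factor MRRF (-0.14 ± 0.04 SE).

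Of 19 mitochondrial tRNA synthetases, 7 rose and 0 fell, and 1 reached an unadjusted p under 0.05 without a call. The 7 are 36.8% of the list, beside 19.3% of all genes tested, and DESeq2 called 5 higher and 0 lower. GARS, which serves both cytosol and mitochondria, rose by 0.55 ± 0.05 SE, and AARS2 by 0.35 ± 0.10 SE. The median of the list was 0.09.

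Of 20 genes of mitochondrial transcription and genome maintenance 5 rose and 5 fell (4 and 3 with DESeq2, and 3 to 5 in each direction with 1 library left out), including POLG, the mitochondrial DNA polymerase (0.24 ± 0.05 SE), and the termination factor MTERF1 (-0.45 ± 0.14 SE). Of 9 tested transcription regulators 0 rose and 3 fell, the same 3 were the ones at an unadjusted p under 0.05, and DESeq2 called 0 higher and 2 lower. With 1 library left out, 1 (without siALKBH5 replicate 2) to 4 (without siALKBH5 replicate 1) fell, and 1 rose without siALKBH5 replicate 2. The ETS factor GABPA was at 466 and 516 counts against 460 and 395 (-0.24 ± 0.08 SE, adjusted p = 0.0168), YY1 had a log2 fold change of -0.14 ± 0.03 SE (adjusted p = 0.00124) and ESRRA one of -0.22 ± 0.03 SE (adjusted p = 7.35e-07). NRF1 was at -0.21 ± 0.12 SE and did not pass (adjusted p = 0.167), and PPARGC1A, at 5 to 10 counts, was not tested. Of the 13 proteins encoded in mitochondrial DNA, which the mitochondrial ribosome makes, 5 transcripts rose and 4 fell. These are 38.5% and 30.8%, beside 19.3% and 17.3% of all genes tested, at a median of the mean counts of 38670. MT-ND4L at 0.29 ± 0.02 SE and MT-CYB at -0.16 ± 0.02 SE were at the ends of the range.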

How the data were processed

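The authors enriched poly-A RNA, and the submitters' processing notes name HISAT2 2.0.5, featureCounts 1.5.0-p3, DESeq2 1.20.0 and hg38. The deposited tables hold raw counts per gene, which were used, and FPKM scaled by the authors within each table, which were not. Each table also holds log2 fold changes and p-values deposited by the authors for its single pair of libraries, which were left aside. All gene identifiers and coordinates match GENCODE 29. The quasi-likelihood test of edgeR 4.0.16 (R 4.3.3) compared siALKBH5 with siControl over all 4 libraries without covariates, after filterByExpr and TMM scaling. Its p-values were adjusted by Benjamini-Hochberg over the 15075 genes that passed the filter. Every adjusted p given is from this test unless another tool is named. The code was tested on simulated data. CPM are TMM-scaled, and levels were divided by listed gene length. Intervals of counts cover counting error only, with a floor of 3 counts. Other settings tried were DESeq2 1.42.0, its size factors within edgeR, unadjusted library sizes, genes without a filter or with a mean count of 10 or more, a replicate block, and dropping single libraries. Leaving out 1 library leaves an arm with 1 sample, which is assumed to vary like the other group.

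The members, the lists of other genes and the settings were chosen with earlier results of these data known. Genes named by rule were ALKBH5, up to 8 members per subunit and direction with the largest called change of the same sign in both tables, the 3 highest and 3 lowest per subunit by level, members not tested, the MRPS18 paralogs, and up to 3 called genes per list and direction. One gene that this rule names is not reported here. Other genes were named after their values were seen. The 2 libraries of a group differed by more than sampling noise and were counted separately.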

Additional observations from a re-analysis of the deposited data

How the results depend on the processing

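All 30 called members kept their sign under every alternative. The groups overlapped for none of the 30, so leaving out 1 library could hardly have changed a sign. DESeq2 called 12 higher and 3 lower members (15.1% and 10.5% of the genes it tested), all among the 30, with 5 higher and 2 lower in the large and 1 lower in the small subunit. Leaving out 1 library gave 14 to 16 higher and 4 to 8 lower members (large subunit 6 to 8 and 2 to 5, small subunit 6 to 9 and 2 to 4), with fewer samples in the fit. Over these fits the median log2 fold change ran from 0.027 to 0.049 for all members, from -0.011 to 0.034 for the large and from 0.088 to 0.114 for the small subunit, and the log2 ratio of the summed counts from 0.066 to 0.073. Without TMM factors the medians of all members and of the small subunit were 0.012 and 0.080 and the ratio of sums 0.047, which follows from a shift of -0.02 in scaling. Members with no shared exon base, a choice made after the data were seen, had medians of 0.0075 in all, 0.034 in the large and 0.0031 in the small subunit, and the cause was not tested. MRPL38 turned to -0.12 without siALKBH5 replicate 1 and MRPS34 to -0.015 without TMM factors, and neither passed the test in any fit. With the replicate number as a block, 22 members rose and 12 fell, which adds MRPL45, MRPL50, MRPS18C and MRPS6. Over all 15075 genes tested, 3091 rose and 2831 fell in that fit. The labels do not say that a number marks a shared culture or day. Deviations of same-numbered libraries had an r of 0.0489 over 15075 genes and 0.351 over the 77 members. With 2 libraries per group, small differences could not be resolved for genes with few counts, such as MRPL38 (SE 0.34).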

Other observations

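Beside the protein-coding genes, the tables list 75 pseudogenes named after mitochondrial ribosomal proteins, of which 16 had a count in any library, and together they held 0.23% of the counts of the members. MRPL45P2, a copy of MRPL45, was counted 113 and 141 times in the controls against 97 and 74 times, with log2 fold change -0.61 ± 0.17 SE (adjusted p = 0.00382, edgeR), whereas MRPL45 itself had 0.10 and did not pass. Reads of such near-identical copies are uncertain. The antisense gene MRPL23-AS1 had 21 and 33 counts against 32 and 46 (0.50 ± 0.33 SE, adjusted p = 0.246), and without strand marking its reads cannot be told apart from those of MRPL23 where the 2 overlap.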
